A study of Mus musculus and Homo sapiens with 27 samples.

Results

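The effect of an IRF4 expression vector on RNA levels was measured in OCI-Ly7 cells, on the 4 human arrays of a series of 27 arrays. All 4 arrays with the OCI-Ly7 titles were taken: 1 at day 2, 2 repeats at day 3 and 1 at day 5. OCI-Ly7 is a human line of diffuse large B-cell lymphoma, of the germinal centre B-cell-like kind. On every array, the Cy5 channel held RNA of cells labelled as expressing human IRF4 from the vector Vxy, and the Cy3 channel held RNA of cells that carried the empty vector Vxypuro. The growth medium was IMEM with fetal bovine serum, per the labels of the IRF4-vector cells; the labels give no day for the empty-vector cells. The series' design text calls the human control non-transduced, and the labels, which name an empty vector, were followed. The other 23 arrays hold mouse B cells and were not used.

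IRF4 is a transcription factor of the interferon regulatory factor family that binds DNA with partners such as the ETS factors PU.1 and Spi-B or the AP-1 factor BATF. It is present at low levels in most germinal centre B cells and at high levels in plasma cells, where it acts with Blimp-1 (the product of PRDM1) and XBP1 in the switch from a dividing B cell to an antibody-secreting cell. That switch is known to bring a larger endoplasmic reticulum (ER), secretion of immunoglobulin and loss of B-cell and germinal centre genes. A line of germinal centre type such as OCI-Ly7 is therefore used to ask which genes follow IRF4 when it is supplied from outside.

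The human lymphochip is a spotted cDNA array with 15246 features, and no value was missing. Features with 1 gene symbol gave 4604 genes, of which 2674 had 2 or more features. Every value below is a log2 ratio of IRF4-vector cells over empty-vector cells, centred on the median of its array and averaged over the features of a gene, so a value above 0 means more RNA with the IRF4 vector. The log base and the direction of the deposited ratio are not stated in the sources used here; base 2 and Cy5 over Cy3 were taken, and every sign below would turn under the opposite direction. The dyes were never swapped, so the dye bias of a gene and its response cannot be told apart, and the spread of empty-vector cells alone is not known. Each ratio comes from a whole culture, in which fewer cells of a kind and less RNA per cell cannot be told apart. The design text speaks of biological repeats without saying what they are, so a p-value measures only the spread between these 4 arrays, which includes the difference in days.

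The arrays differed in spread, and the day 3 repeats were no more alike than arrays of different days. The deposited values had a standard deviation of 1.51 at day 2, 1.30 and 1.25 in the day 3 repeats and 2.04 at day 5. At day 5, 834 genes lay beyond 2 log2 units from 0, against 247 to 403 on the other arrays. Most of these lay below 0, except on day 3 repeat 1. Genes below -2 and above 2 numbered 754 and 80 at day 5 and 367 and 36 at day 2. They numbered 125 and 122 on day 3 repeat 1 and 232 and 33 on day 3 repeat 2. Over the 4604 genes, Pearson's r was 0.334 between the day 3 repeats and 0.316 to 0.489 between arrays of different days; these are descriptions across genes, which are not independent replicates. After centring, the median of all gene means was -0.14, and it was -0.33 without centring. Day 3 repeat 1 and day 5 had database numbers in a lower range, and day 2 and day 3 repeat 2 in an upper one. A difference between day 2 and day 5 is therefore mixed with any difference between these ranges.

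The mean of the 4 IRF4 features was near 0. The gene value was -0.29 at day 2, 0.67 and -0.17 in the day 3 repeats and -0.32 at day 5, with a mean of -0.03 ± 0.30 (SE, n = 4 arrays; limma adjusted p = 0.964). Day 3 repeat 1 lay above 0 and the other arrays below it. The features differed: 1 of the 4 was above 0 on every array, with 0.60 at day 2, 0.64 and 0.86 at day 3, and 0.67 at day 5, a mean of 0.69 (adjusted p = 0.218 over all features). The other 3 features had means of -0.45, -0.36 and 0.02 and lay below 0 on every array but day 3 repeat 1, where they were between 0.58 and 0.77. Which part of the IRF4 transcript each feature holds, and whether the vector's transcript contains it, is not given in the sources used here, so the mean of the features does not settle the direction of the ratio. Without the day 2, day 3 repeat 2 or day 5 array the mean was 0.06, 0.02 or 0.07, and without day 3 repeat 1 it was -0.26, none of them past the threshold.

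The comparison of IRF4-vector with empty-vector cells asked which genes differ when IRF4 is supplied. With limma's moderated test of the mean against 0 and an adjusted p under 0.05, 5 of 4604 genes (0.109%) passed: 2 rose (0.0434%) and 3 fell (0.0652%). TNFRSF17 and BMP6 were higher with the IRF4 vector, and FGFR2, ICOSLG and SGSH were lower. At an unadjusted p under 0.05 there were 364 genes above 0 (7.91%) and 735 below it (16.0%), so values below 0 were the more frequent. All 4 arrays were above 0 for 782 genes (17.0%) and below 0 for 968 genes (21.0%), together 1750 genes (38.0%). An exact sign-flip test of a single gene cannot give a p below 0.125 with 4 arrays. The count depended on scaling: quantile normalization of the arrays gave 94 genes, 21 higher and 73 lower, and values without centring gave 1 gene, which was lower. No gene passed with the day 3 repeats averaged (limma's smallest adjusted p 0.101, 958 genes at an unadjusted p under 0.05) or with the database number range of the arrays as a factor (0.0573, 1078 genes).

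**Figure D1:**
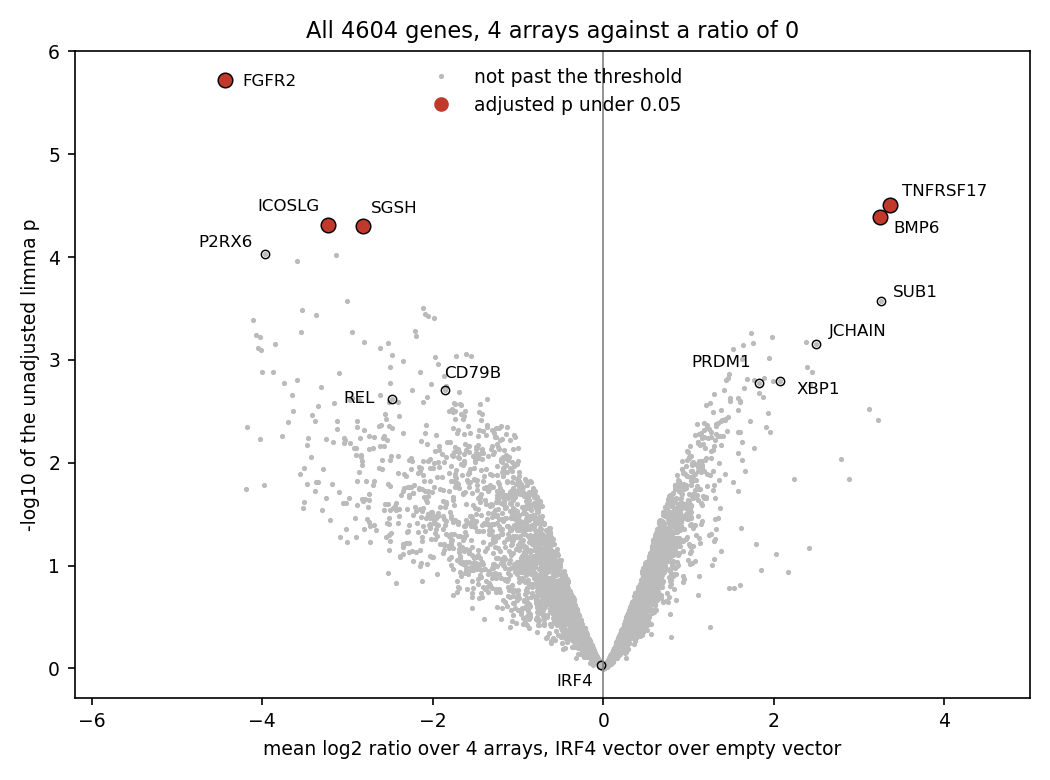
Each point is 1 of 4604 genes, with the mean log2 ratio of IRF4-vector over empty-vector cells across 4 arrays on the x axis and -log10 of limma's unadjusted p on the y axis. The filled points are the 5 genes past an adjusted p of 0.05, TNFRSF17 and BMP6 on the right and FGFR2, ICOSLG and SGSH on the left; open circles mark other named genes, and IRF4 lies near 0 on both axes.

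TNFRSF17 encodes BCMA, the receptor through which plasma cells receive the survival factors APRIL and BAFF. Its ratio was 2.63 at day 2, 3.88 and 3.55 in the day 3 repeats and 3.38 at day 5. It was far above 0 on every array, and both of its features were, with means of 2.85 and 3.88. The mean was 3.36 ± 0.31 (SE, n = 4), a 10.3-fold higher level (limma adjusted p = 0.0455), and it was the highest mean of the 4604 genes.

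BMP6, a secreted ligand of the TGF-beta superfamily, had 2.70 at day 2, 4.01 and 3.11 at day 3 and 3.18 at day 5. Its 3 features were alike, each between 2.58 and 4.41 on every array. The mean was 3.25 ± 0.31, 9.51-fold higher (adjusted p = 0.0455).

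FGFR2, a receptor tyrosine kinase for fibroblast growth factors, had 1 feature, with -4.51 at day 2, -4.65 and -4.36 at day 3 and -4.22 at day 5. The values on the 4 arrays lay closer together than those of the other called genes. Some strongly negative values recurred in other genes on the same array. An ICOSLG feature also had -4.356 on day 3 repeat 2, and a JAK2 feature also had -4.22 at day 5. On day 3 repeat 2, an SGSH feature and a BACH2 feature shared -4.493. At day 2, features of ICOSLG, CDC25A and IL21R shared -4.619, features of BACH2 and FASLG shared -4.382, and features of BACH2 and BTK shared -4.247. The cause of these equal values was not tested, so the closeness of the FGFR2 values may not reflect precision. The same limit holds for the size of the strongly negative values given below for other genes. The mean was -4.43 ± 0.25, 21.6-fold lower (adjusted p = 0.00878), and it was the lowest mean of all genes.

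ICOSLG, the ligand through which B cells engage ICOS on helper T cells, had -3.49 at day 2, -3.77 and -2.41 at day 3 and -3.25 at day 5, with a mean of -3.23 ± 0.32 (9.39-fold lower, adjusted p = 0.0455). Both features were below 0 on every array, but their means were -1.32 and -5.15. On day 3 repeat 1 they were farthest apart, at -0.07 and -7.47. The lower feature had -4.619 at day 2 and -4.356 on day 3 repeat 2, values shared with features of other genes.

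SGSH, a lysosomal sulfatase that takes part in the breakdown of heparan sulfate, had -2.47, -2.97, -2.56 and -3.30 on the 4 arrays, with a mean of -2.82 ± 0.28 (7.08-fold lower, adjusted p = 0.0455). The even gene value came from features that were uneven. One had -5.03, -5.71 and -5.40 at day 2, day 3 repeat 1 and day 5 and -0.63 on day 3 repeat 2. The other had 0.10, -0.22 and -1.20 on the same 3 arrays and -4.49 on day 3 repeat 2. Neither feature alone passed the threshold, and no feature of any gene did when the 10169 features with 1 symbol were tested singly, where limma's smallest adjusted p was 0.0505 and 2256 features had an unadjusted p under 0.05.

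Leaving out 1 array left few calls. No gene passed without the day 2 array, day 3 repeat 1 or day 3 repeat 2, where FGFR2 had an adjusted p of 0.147, 0.0709 and 0.112 by limma. Without the day 5 array FGFR2 passed at 0.0391, and no other gene did. TNFRSF17, BMP6, ICOSLG and SGSH had adjusted p-values of 0.119 to 0.191 when any array was left out. Their means moved little: 3.19 to 3.61 for TNFRSF17, 3.00 to 3.43 for BMP6, -3.50 to -3.05 for ICOSLG and -2.94 to -2.66 for SGSH.

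**Figure D2:**
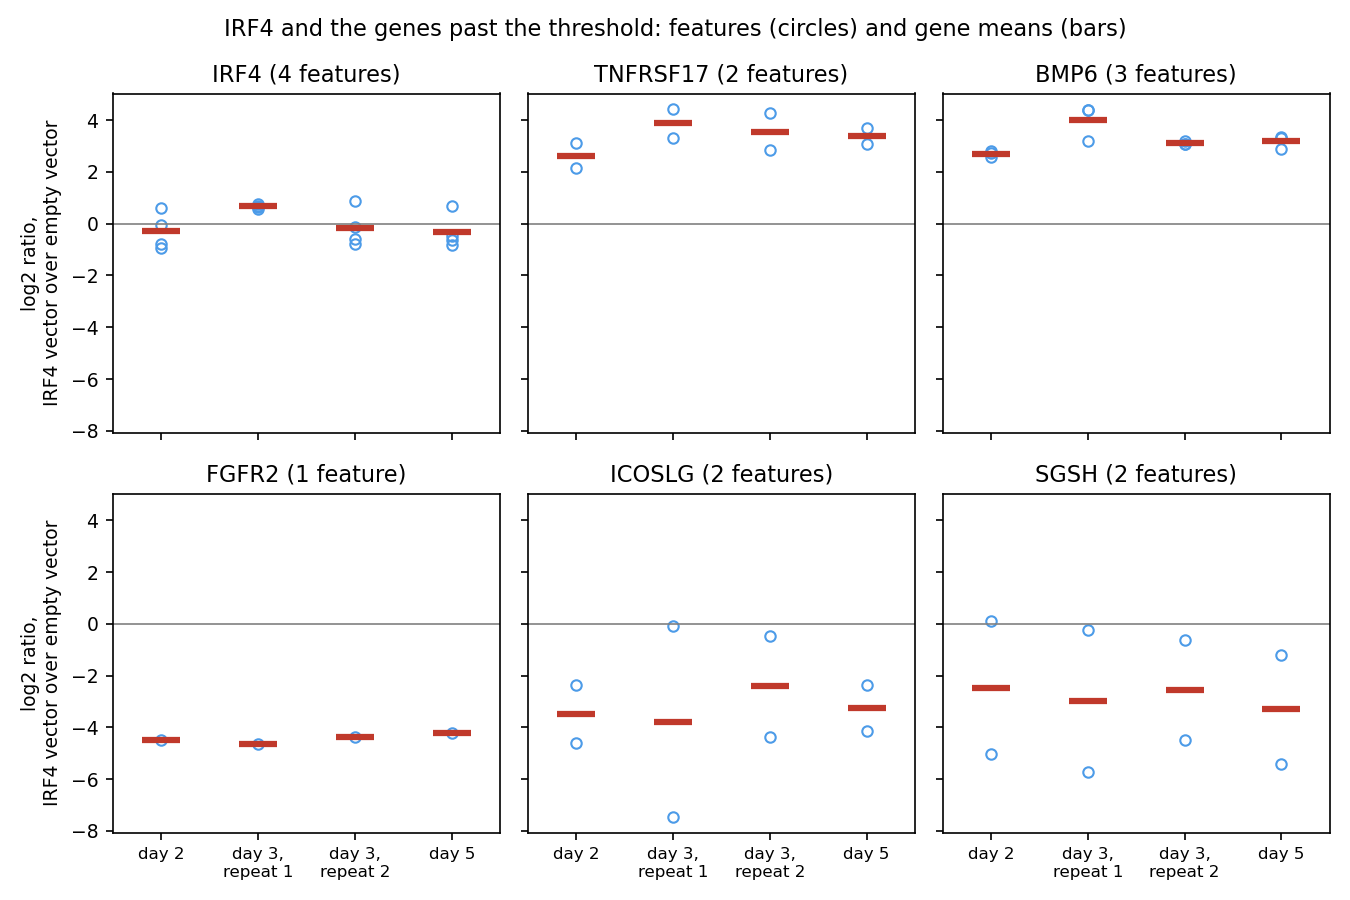
Log2 ratio of IRF4-vector over empty-vector cells on each of the 4 arrays for IRF4 and the 5 genes past the threshold; circles are single features and bars are the gene value. TNFRSF17 and BMP6 lie above 2 on every array with every feature, the single FGFR2 feature lies below -4 on every array, the features of ICOSLG and SGSH lie far apart, and IRF4 has 1 feature above 0 on every array.

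The genes next in order did not pass. Among the lower ones were P2RX6, a subunit of ATP-gated ion channels, with a mean of -3.97 (-4.92, -2.50, -4.10 and -4.35 on the 4 arrays; limma adjusted p = 0.0630), ARHGAP15, a GTPase-activating protein for Rac, with -3.13 (adjusted p = 0.0630), and TUFM, the mitochondrial elongation factor Tu, with -3.59 (adjusted p = 0.0634). P2RX6, ARHGAP15, TUFM, PLA2G4C, MACROD1, ZNF257, NAB1 and GNAI2 each rest on 1 feature. FGL2, a fibrinogen-like protein with 2 features, averaged -2.09, with feature means of -4.07 and -0.11. On the higher side stood SUB1, a transcriptional coactivator, with a mean of 3.25 (1.97, 3.94, 2.91 and 4.19; adjusted p = 0.102), AEN, a nuclease induced by p53, with 2.38, BCAR3, an adaptor protein, with 1.97, ERP44, which retains proteins in the early secretory pathway, with 1.94, LBR, the lamin B receptor, with 1.75, SRSF10, a splicing factor, with 1.73, TAF4B, a subunit of the general factor TFIID, with 1.64, LMO4, a LIM-only factor, with 1.62, and DPH2, which takes part in making diphthamide, with 1.52. Each of these, SUB1 included, also has 1 feature. All of the genes named here were on one side of 0 on all 4 arrays.

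Genes of the plasma cell programme were the list with the highest median. Of 16 listed genes 12 were measured, 1 of them (TNFRSF17) passed the threshold, and 6 (50.0%) were above 0 on all 4 arrays, against 17.0% of all genes; 1 (8.33%) was below 0 on all 4, against 21.0%. The median of the 12 means was 1.02, against -0.14 over all genes. By array the list's median was 0.85 at day 2, 0.74 and 0.66 at day 3 and 1.08 at day 5. With any array left out, 6 or 7 members were above 0 on the other 3, as were 19.4% to 23.5% of all genes. Such a count cannot fall below the count on all 4 arrays, so it does not test how stable the list is.

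JCHAIN, which encodes the chain that joins IgM and IgA into polymers, had 1.60 at day 2, 3.42 and 1.87 at day 3 and 3.09 at day 5. All 5 of its features were above 0 on all arrays, from 1.03 to 5.09. Its mean was 2.50 ± 0.40, 5.65-fold higher, with a limma adjusted p of 0.102, which did not pass. PRDM1, the Blimp-1 gene, whose product represses the B-cell programme, had 1.51 at day 2, 1.33 and 1.64 at day 3 and 2.84 at day 5. Its highest value was at day 5, and its 3 features were all above 0 on all arrays. The mean was 1.83 ± 0.34 (adjusted p = 0.119). XBP1, the factor that directs ER expansion, had 1.47, 3.32, 1.62 and 1.86, with day 3 repeat 1 well above the others, and a mean of 2.07 ± 0.39 (adjusted p = 0.119).

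The rest of the plasma cell list is given in full. ELL2, an elongation factor that favours the secretory form of the heavy chain transcript, had 5.88, 0.66, 3.46 and 1.51, the widest spread of the members above 0. CD38, a surface ectoenzyme, had 0.86, 2.55, 1.00 and 1.97, and its mean was 1.60 (adjusted p = 0.130). CD27, a memory and plasma cell receptor of the TNF receptor family, averaged 0.45. Syndecan-1 (SDC1), the usual surface marker of plasma cells, averaged -0.08 ± 0.25, POU2AF1, the coactivator OCA-B, -0.05, MZB1, an ER chaperone of secreting B cells, -0.23, and the integrin chain ITGA6 -0.52. SLAMF7, a plasma cell surface receptor, was below 0 on all arrays, with -3.40, -0.39, -1.50 and -2.17 and a mean of -1.86 (adjusted p = 0.137). The list therefore held members on both sides of 0. FKBP11, SEC11C, CAV1 and TNFRSF13B, the other listed genes, had no feature under these symbols.

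Genes of ER secretion and protein folding were the list with the next highest median. Of 36 listed genes 24 were measured and none passed the threshold. On all arrays, 13 (54.2%) were above 0, against 17.0% of all genes, and 1 (4.17%) was below 0, against 21.0%. The median was 0.63. It was 0.34 at day 2, 1.56 and 0.47 at day 3 and 0.57 at day 5, so day 3 repeat 1 was the highest. Without that array the median was 0.38. The members above 0 on the other 3 arrays then numbered 13, a count that could not fall below that on all arrays.

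After XBP1, the ER members of lowest p were SSR3, SRP14 and SSR1, subunits of the translocon-associated protein complex (SSR3 and SSR1) and of the signal recognition particle (SRP14). SSR3 had 1.38, 3.07, 1.52 and 1.50, a mean of 1.87 ± 0.37 (limma adjusted p = 0.124). SSR1 averaged 1.38 and SRP14 1.43, both with an adjusted p of 0.130. In all of these genes the other arrays lay close together and day 3 repeat 1 stood above them. The ER chaperone BiP (HSPA5) had 0.51, 3.05, 0.74 and 1.16, and the disulfide isomerase PDIA4 had 1.19, 2.04, 1.30 and 0.32. DNAJB9, a co-chaperone of BiP and a known XBP1 target, averaged 1.19. SSR4, SRP54, SRP9, the lectin chaperones CANX and CALR and the ubiquitin ligase SYVN1 made up the rest of those above 0 on all arrays, with means of 0.60 to 1.31. KDELR1, a receptor that returns ER proteins from the Golgi, was below 0 on all arrays with a mean of -2.26, and the chaperone HSP90B1 had -2.84, 1.40, -2.04 and -0.06.

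**Figure D3:**
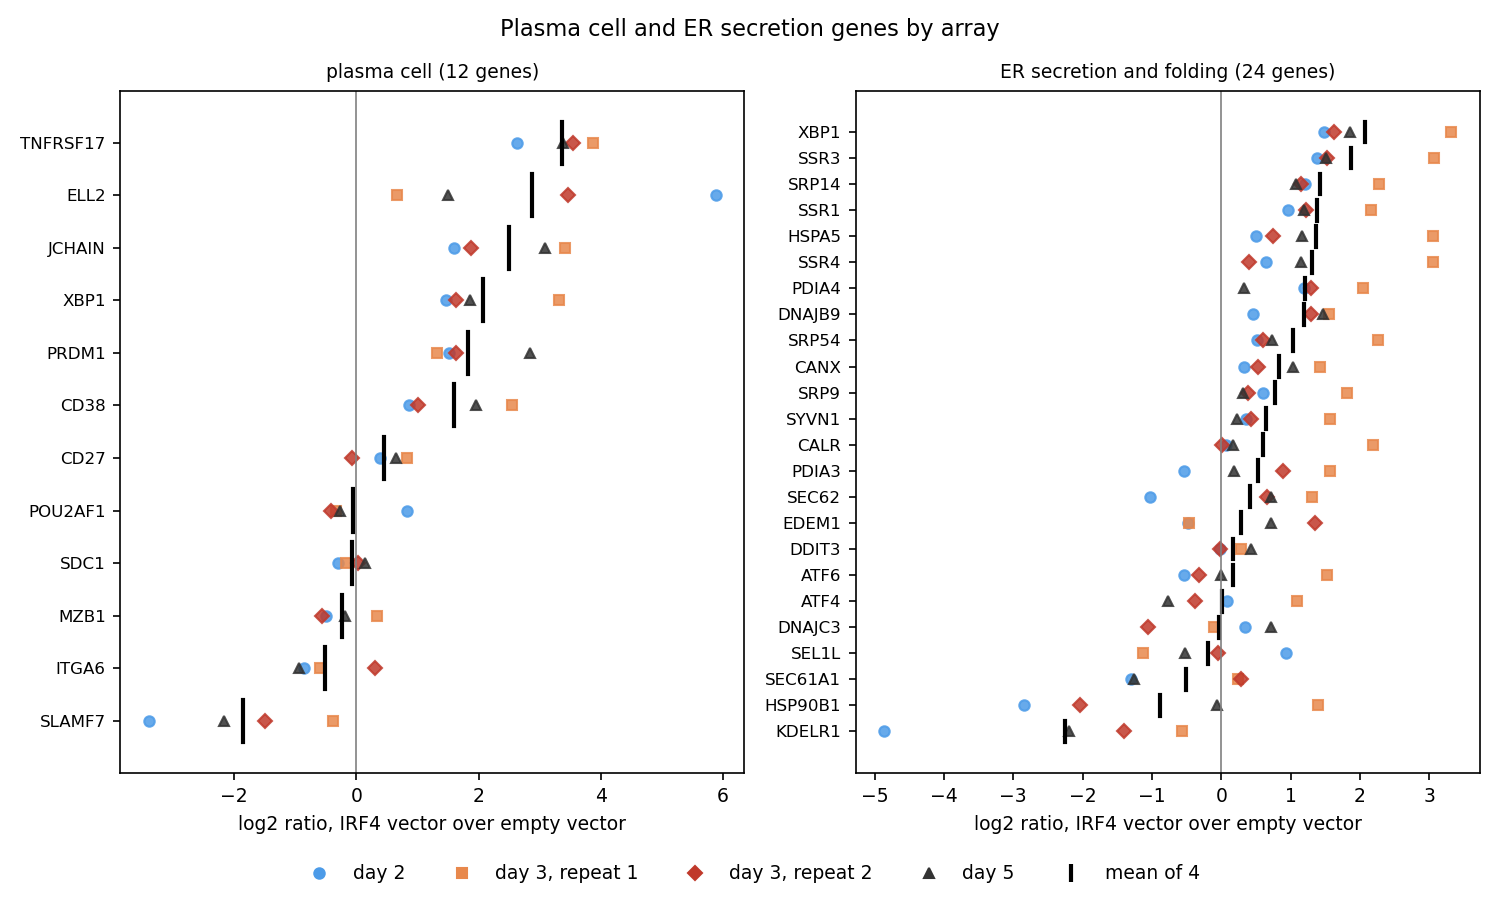
Log2 ratio of IRF4-vector over empty-vector cells for each measured gene of the plasma cell list (left) and of the ER secretion list (right), with 1 symbol per array and a bar at the mean of 4. From TNFRSF17 to CD38 and from XBP1 to CALR all 4 arrays lie above 0, SLAMF7 and KDELR1 lie below 0, and day 3 repeat 1 is the highest array for most ER genes.

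Immunoglobulin chain genes were scarce under 1 symbol, with 5 of 14 listed genes measured. On all arrays, 2 (40.0%) were above 0, against 17.0% of all genes, and none was below, against 21.0%. JCHAIN is one of the 2, and the other is IGHA1, the constant region of the IgA heavy chain. IGHA1 had 0.54, 0.19, 0.60 and 1.08 and a mean of 0.60 ± 0.28 (limma adjusted p = 0.239). The IgM heavy chain gene IGHM had 0.16, -0.03, 0.20 and 0.27, a mean of 0.15, and the surrogate light chain gene IGLL1 averaged 0.71. IGHD, the IgD heavy chain gene, averaged -0.10 and was spread from -1.58 to 1.01. Constant region genes are near-identical in part, so a cDNA feature may hold signal of a related gene.

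Germinal centre genes lay mostly below 0. Of 21 listed genes 17 were measured, none passed the threshold, 9 (52.9%) were below 0 on all arrays, against 21.0% of all genes, and 2 (11.8%) were above 0 on all. The median was -0.45, and by array it was -0.72 at day 2, -0.27 and -0.23 at day 3 and -0.34 at day 5. With any array left out, 9 or 10 members were below 0 on the other 3, as were 25.5% to 33.3% of all genes. This count, too, cannot fall below the count on all arrays.

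ASB13, a suppressor-of-cytokine-signalling box protein often higher in germinal centre-type lymphoma, had -2.10, -1.21, -2.05 and -1.53, a mean of -1.72 ± 0.29 with 1 feature (limma adjusted p = 0.104). SERPINA9, a protease inhibitor made by germinal centre B cells, had -0.72, -0.72, -1.59 and -1.54 and a mean of -1.14 (adjusted p = 0.137). Its 2 features disagreed, with means of -0.18 and -2.10 and with 1.095 and -4.165 at day 5. BACH2, a repressor that holds back plasma cell differentiation, had -0.79, -0.69, -0.70 and -1.12, a mean of -0.82 ± 0.26 (adjusted p = 0.157). Its gene value was even across arrays, but 8 of its 25 features had a mean above 0. CXCR5, the receptor that guides B cells into follicles, averaged -1.10 and was lowest at day 5 with -2.33. IRAG2 averaged -0.89, ITPKB, an inositol trisphosphate kinase, -0.77, the MYB-related factor MYBL1 -0.45 and the kinase NEK6 -0.40.

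Other members of the list, named after their values were seen, included genes on both sides of 0. BCL6, the master repressor of the germinal centre state, had -0.39, 0.51, 0.10 and 0.36, and its mean was 0.15 ± 0.28 (limma adjusted p = 0.753). Its arrays lay on both sides of 0. MME, which encodes CD10, lay between -0.20 and -0.06 with a mean of -0.11. The methyltransferase EZH2 averaged 0.42, the adaptor STAP1 0.91 (adjusted p = 0.162), and the chemokine receptor CXCR4 0.52. LMO2, a transcriptional adaptor of germinal centre B cells, had -1.79, -0.55, -0.58 and 0.36, so its value was lowest at day 2 and highest at day 5. RGS13, a regulator of chemokine signalling, averaged -0.72 with arrays on both sides of 0.

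Genes of mature B cells and of B-cell receptor signalling had a median of -0.54. Of 23 listed genes 21 were measured and none passed. On all arrays, 8 (38.1%) were below 0, against 21.0% of all genes, and 2 (9.52%) were above, against 17.0%. CD79B, a signalling chain of the B-cell receptor, had -1.39, -1.17, -2.03 and -2.86 and a mean of -1.86 ± 0.36 over 12 features, of which 1 had a mean above 0 (limma adjusted p = 0.123). CD79A, its partner chain, was above 0 on all arrays, with 0.64, 0.51, 1.05 and 0.04 and a mean of 0.56. The 2 chains of the receptor thus lay on opposite sides of 0 on all arrays; the difference between them was not tested.

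The receptor kinase BTK had -1.99, -0.17, -1.48 and -2.60 and a mean of -1.56 (limma adjusted p = 0.144), but 3 of its 7 features had a mean above 0 and the feature means ran from -5.40 to 0.70. CD72, a coreceptor with an inhibitory tail, had -3.89, -0.86, -0.78 and -5.25, so its mean of -2.70 rests on day 2 and day 5. On these arrays 1 of its 2 features had -6.53 and -8.43, and the other had -1.26 and -2.07. POU2F2, the octamer factor Oct-2, averaged -0.85, the early B-cell factor EBF1 -0.78, the coreceptor CD22 -0.80, the inhibitor of E proteins ID3 -0.77 and the ETS factor SPIB -0.43, all below 0 on every array. PAX5, the factor that maintains B-cell identity, had -0.58, -1.22, 0.00 and -0.65 and a mean of -0.61. MS4A1, which encodes CD20, was above 0 on all arrays, with 0.66, 2.02, 0.85 and 0.66 and a mean of 1.05 (adjusted p = 0.162).

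**Figure D4:**
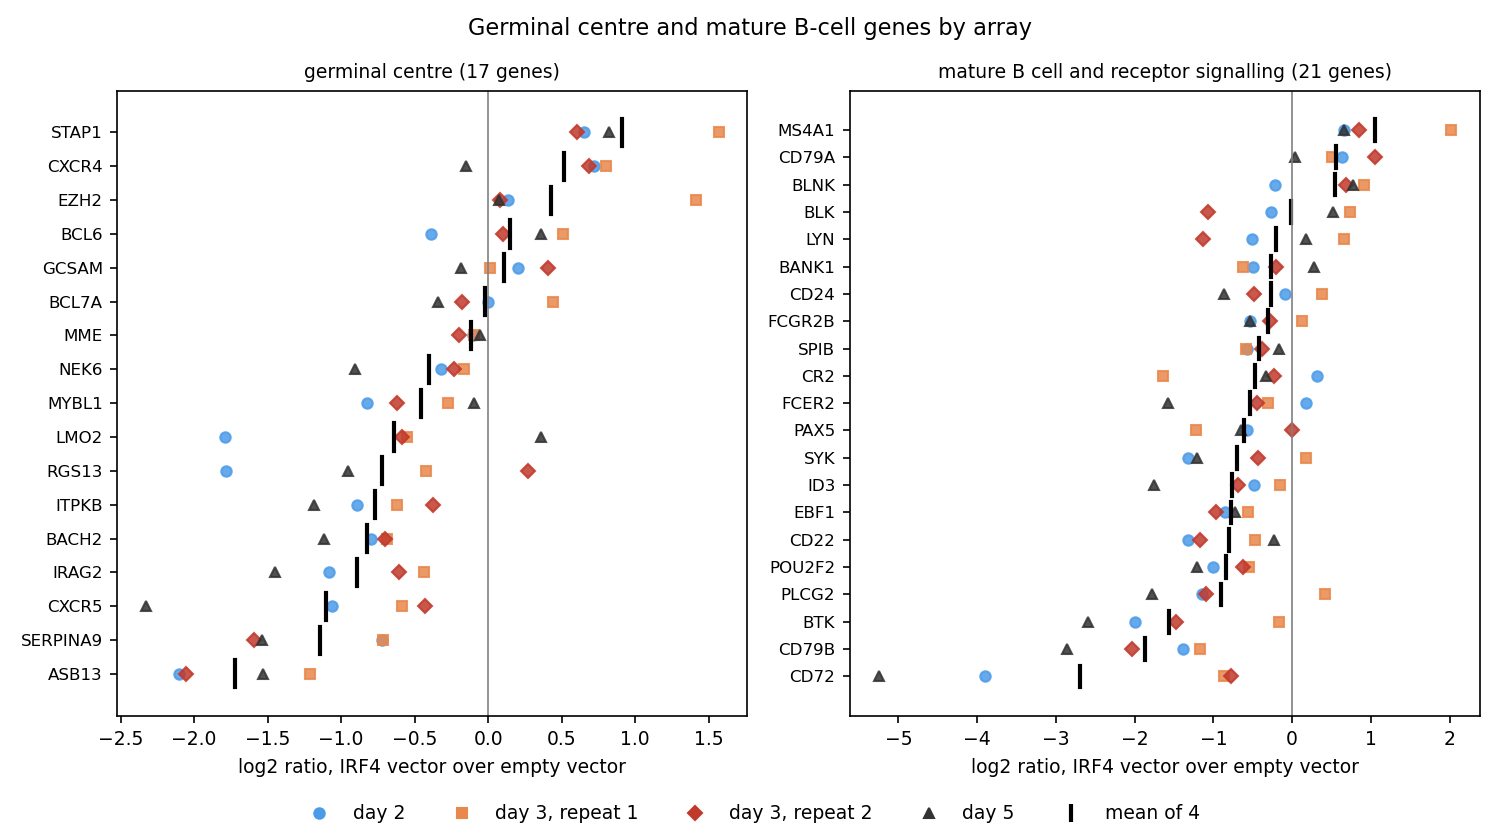
Log2 ratio of IRF4-vector over empty-vector cells for each measured gene of the germinal centre list (left) and of the mature B-cell list (right), with 1 symbol per array and a bar at the mean of 4. ASB13, SERPINA9, BACH2, CD79B and EBF1 lie below 0 on all arrays, STAP1, MS4A1 and CD79A lie above 0 on all, and BCL6 has arrays on both sides.

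MHC class II genes went both ways. Of 10 measured members of 12 listed, 2 (20.0%) were above and 2 (20.0%) below 0 on all arrays, against 17.0% and 21.0% of all genes. The median was -0.09. HLA-DPA1 had 0.97, 2.05, 0.80 and 0.57 (mean 1.10 ± 0.34, limma adjusted p = 0.157). HLA-DQA1 had -1.04, -0.79, -0.64 and -0.74 (mean -0.80 ± 0.25, limma adjusted p = 0.159). The means of the 6 HLA-DQA1 features ran from -2.41 to 0.46, with 1 above 0. The class II transactivator CIITA, which Blimp-1 is known to repress, averaged -0.45 and was below 0 on all arrays. CD74, the invariant chain, averaged -0.25 with arrays on both sides. Class II genes are alike in sequence, and features of one may hold signal of another.

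Among the IRF family and partners of IRF4, 20 of 23 listed genes were measured, with a median of -0.33. On all arrays, 1 (5.00%) was above and 5 (25.0%) were below 0, against 17.0% and 21.0% of all genes. The median of this list ran from -0.52 to 0.04 (without the day 5 array) over the alternative settings, so its sign is not fixed, and without day 3 repeat 1 the members below 0 on the other 3 arrays numbered 9 of 20, where 33.3% of all genes were below 0. BATF, the AP-1 partner of IRF4, had -1.02, -0.47, -2.02 and -3.47 and a mean of -1.74 (limma adjusted p = 0.155), and its lowest array was day 5. IRF8, the close relative of IRF4 in germinal centre B cells, had -0.05, -0.21, -0.73 and -0.99, with a mean of -0.50 ± 0.29 (adjusted p = 0.320). Of its 5 features, 2 had a mean above 0. SPI1, which encodes PU.1, averaged 0.09, and SPIB is given above.

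NF-kB genes had a median of -0.50 over 18 measured members of 20. On all arrays, 2 (11.1%) were above and 5 (27.8%) below 0, against 17.0% and 21.0% of all genes. REL, the NF-kB subunit c-Rel, had -2.60, -1.06, -2.21 and -4.07, a mean of -2.48 ± 0.50 (limma adjusted p = 0.124). All 4 of its features were below 0 on all arrays, but their means ran from -4.18 to -0.49. At day 5 the features had -7.503, -7.035, -1.71 and -0.019. NFKB1 had -0.09, 0.06, -0.31 and -2.66 and NFKB2 -0.22, -0.63, -0.18 and -3.13, so for both precursors day 5 stood far below the other arrays. RELA averaged 0.12. Without the day 5 array the median of the list was -0.28, and without day 3 repeat 1 or day 3 repeat 2 the members below 0 on the other 3 arrays numbered 8 or 10 (33.3% or 26.0% of all genes were).

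Of the 14 costimulation and activation genes, all were measured and ICOSLG passed. On all arrays, 4 (28.6%) were below 0, against 21.0% of all genes, and none was above, against 17.0%. The median was -0.55. IL21R, the receptor for a T-cell cytokine that drives plasma cell formation, had -1.74, -0.27, -0.94 and -3.49 (mean -1.61; limma adjusted p = 0.171), and 2 of its 6 features had a mean above 0. CD80, CD86 and CD40 averaged -0.37, -0.49 and -0.03.

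Among cytokine feedback genes, 16 of 18 were measured with a median of -0.05. On all arrays, 4 (25%) were above and 2 (12.5%) below 0, against 17.0% and 21.0% of all genes. STAT3 had -2.51, -0.36, -1.49 and -1.58 and a mean of -1.49 (limma adjusted p = 0.137), and JAK2 averaged -1.88. DUSP5, a phosphatase of ERK, had 0.76, 0.65, 0.75 and 2.40, with day 5 above the others. The kinase genes PIM1 and PIM2 averaged 0.52 and 0.74 and were above 0 on all arrays, and SOCS2 averaged -0.19. Of 26 measured interferon-stimulated genes, 6 (23.1%) were above and 7 (26.9%) below 0 on all arrays, against 17.0% and 21.0% of all genes. Their median was -0.32. In that list B2M, the light chain of MHC class I, averaged 1.26 and OAS1 0.74, while IFITM3 averaged -1.92 and EIF2AK2 -0.98.

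The activated B-cell signature holds genes that mark the other main kind of diffuse large B-cell lymphoma, in which IRF4 itself is known to be high. Its median was 0.00 over 16 measured members of 17. On all arrays, 3 (18.8%) were above and 4 (25.0%) below 0, against 17.0% and 21.0% of all genes. FOXP1 lay between -0.07 and -0.01 on every array. ENTPD1 averaged 0.47, PTPN1 0.60 and PIM1 0.52, all above 0 on all arrays. CYB5R2 averaged -2.76 and, with BATF and STAT3, was below 0 on all arrays.

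Lists of DNA replication, mitosis and MYC and growth genes had medians below 0 on 3 arrays and above 0 on day 3 repeat 1. DNA replication genes (25 of 36 measured) had medians of -0.16 at day 2, 0.63 and -0.43 at day 3 and -0.57 at day 5. MYC and growth genes (15 of 18) had -0.11, 1.41, -0.18 and -0.18, and mitosis genes (29 of 31) had -0.18, 0.61, -0.16 and -0.13. The same array was the highest for ER genes, while the plasma cell list had its highest median at day 5; the part of this array's own level in the results was not tested beyond leaving it out. MYC had 0.27, 1.80, 0.35 and 0.86 and a mean of 0.82 ± 0.35 (limma adjusted p = 0.216).

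On all arrays, 3 (12%) of the DNA replication genes were above and 2 (8%) below 0, against 17.0% and 21.0% of all genes. Mitosis genes had 6 (20.7%) and 5 (17.2%), and cell cycle inhibitors 3 (25%) and 3 (25%). The single genes given next are therefore not a result about their lists. MCM4 and MCM5, replication genes of low p, averaged -1.72 and -1.17 and lay above 0 only on day 3 repeat 1. Other cell cycle genes were on one side of 0 on all arrays. The replication licensing factor CDT1 averaged -1.93 (adjusted p = 0.134), thymidine kinase TK1 -1.16 and the mitotic kinase PLK1 -1.23, and the checkpoint genes BUB1 and BUB3 averaged 1.08 and 0.77. CDC25A, a phosphatase that activates cyclin-dependent kinases, had -4.62, -0.71, -7.20 and -3.59 with 1 feature. Among cell cycle inhibitors (12 of 17 measured, median -0.16), BTG1, an antiproliferative gene of resting B cells, had 1.08, 2.37, 1.15 and 1.81, a mean of 1.60 ± 0.33, with all 6 features above 0 (limma adjusted p = 0.124). TP53INP1, a p53-induced gene, averaged 1.32 (adjusted p = 0.130), but its 4 features disagreed. Of these, 3 had a mean above 0, and the feature means ran from -1.52 to 2.48. CDKN1B, which encodes p27, averaged 0.83. Of 25 measured apoptosis genes, 3 (12%) were above and 6 (24%) below 0 on all arrays, against 17.0% and 21.0% of all genes. MCL1 had a mean of 0.79, CASP2 -2.48 (feature means -4.06 and -0.90), the death ligand TNFSF10 -1.47 and FASLG -1.42.

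Markers of cells other than B cells gave shares below 0 on all arrays near that of all genes, but no marker was above 0 on all arrays. Their levels cannot be read from ratios. Of 19 measured T- and NK-cell markers, none was above and 5 (26.3%) were below 0 on all arrays, against 17.0% and 21.0% of all genes. The list's median was 0.08 at day 2, -0.25 and 0.06 at day 3 and -1.10 at day 5. LCK averaged -1.38, and CD3D, CD3E and CD4 had -3.13, -2.45 and -4.03 at day 5. Of 11 measured myeloid markers, none was above and 2 (18.2%) were below 0 on all arrays. The list medians were 0.51 at day 2, -0.33 and -0.37 at day 3 and -0.77 at day 5. These low day 5 values stand beside the wider spread of that array, and their part in the other results was not tested beyond leaving the array out.

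**Figure D5:**
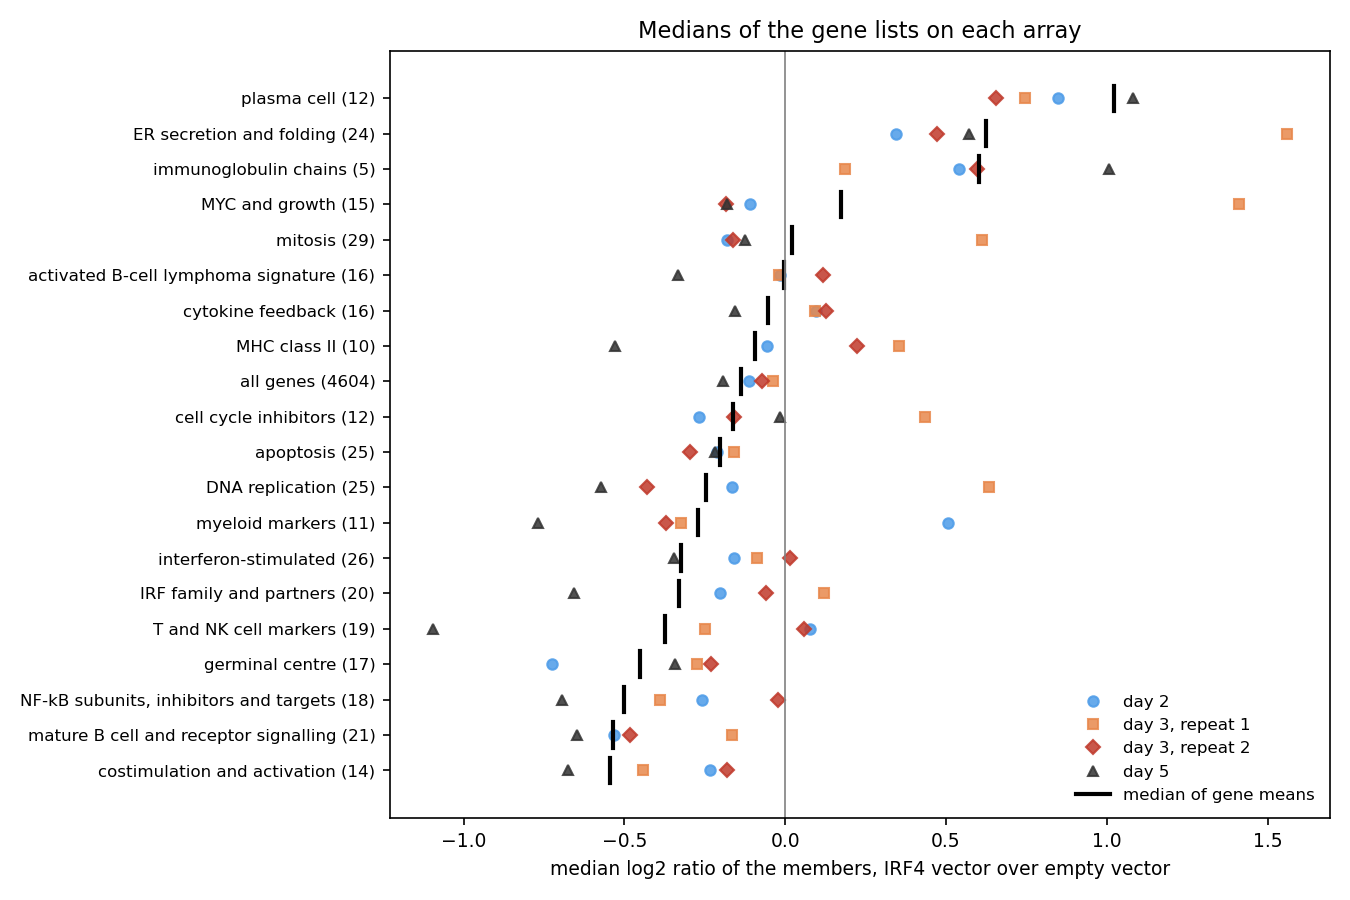
Median log2 ratio of IRF4-vector over empty-vector cells of each gene list (number of measured genes in brackets) on each array, with a bar at the median of the gene means. The plasma cell and ER lists lie above 0 on all arrays, the germinal centre and mature B-cell lists below 0 on all, day 3 repeat 1 is far to the right for ER, MYC and growth, and DNA replication genes, and day 5 is far to the left for T and NK cell markers.

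The course over days 2, 3 and 5 was fitted as a straight line per gene, with 2 residual degrees of freedom. No gene passed limma's adjusted p of 0.05 (smallest adjusted p 0.140). At an unadjusted p under 0.05 there were 567 genes (12.3%), of which 130 went up with the day (2.82%) and 437 went down (9.49%). After quantile normalization the counts were 147 down and 94 up. With 1 array left out and 1 residual degree of freedom, 277 genes passed without day 2, 152 without day 3 repeat 2 and 97 without day 5, and none without day 3 repeat 1. Without day 5, 89 of the 97 went up, while without day 2, 259 of the 277 went down.

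The genes that passed the comparison with the empty vector showed no course beyond this error. The change per day was 0.16 ± 0.30 (SE) log2 units for TNFRSF17, 0.08 ± 0.30 for BMP6, 0.10 ± 0.25 for FGFR2, 0.05 ± 0.31 for ICOSLG and -0.28 ± 0.25 for SGSH. Their values were thus already large at day 2 in IRF4-vector over empty-vector cells. PRDM1 had a change of 0.49 ± 0.27 per day and JCHAIN 0.44 ± 0.34, CD79B -0.52 ± 0.28 and REL -0.64 ± 0.39, none past the threshold.

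Of genes with 2 or more features, those of lowest p for a rise were TMEM131L, EML1, S1PR1, FCHSD2 and GPBP1. S1PR1, a receptor that guides lymphocytes out of tissues, had -0.71 at day 2, 0.20 and 0.84 at day 3 and 2.69 at day 5 (1.12 ± 0.26 per day, limma adjusted p = 0.176). TMEM131L had -4.78, -2.76, -2.26 and 0.28, but at day 5 its 2 features had -1.56 and 2.11. The low day 2 values of EML1, FCHSD2 and GPBP1 came mostly from 1 of their 2 features. That feature had -4.33, -4.765 and -5.38 in these genes, against -0.235, 0.677 and -0.312 in the other. Those of lowest p for a fall were MC1R, CASP1, NT5C2, CCL8 and UNC93B1. The inflammatory caspase CASP1 had 0.72, -0.78, -0.48 and -3.70 (-1.49 ± 0.25 per day, adjusted p = 0.140), and MC1R, a melanocortin receptor, had 1.98, 0.27, -0.07 and -3.09. In the gene values of these 5, day 5 was the lowest array. For MC1R and UNC93B1 that came from 1 of their 2 features: at day 5 the features of MC1R had 1.22 and -7.39 and those of UNC93B1 0.63 and -6.75. With values beyond 6 log2 units left out, their changes per day were -0.08 for MC1R and -0.008 for UNC93B1, against -1.67 and -1.37 with all values.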

How the data were processed

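The authors deposited 1 value per feature and array, taken here as the log2 ratio of Cy5 (IRF4 vector) over Cy3 (empty vector); base and direction are not stated in the sources used here, nor are scanner, background correction, normalization or filters. Per the labels' protocols, RNA came from a Trizol extraction of total RNA and took up its dye during reverse transcription. Channel signals were not analysed, so signal over background is unknown and the number of arrays limits the precision. Symbols came from the platform's annotation (dated 2007): 10169 features had 1 symbol, 4 several and 5073 none.

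The median of all features was subtracted on each array, and features of 1 symbol were averaged. The mean of the 4 arrays, and in a second fit the change per day, was tested 2-sided against 0 with limma 3.58.1 (lmFit, eBayes) in R 4.3.3, with Benjamini-Hochberg adjustment over 4604 genes and a threshold of 0.05. SD and SE are over arrays, and SE is limma's. The fits were tested on simulated data. Named genes were IRF4, the 12 genes of either direction past the threshold or next by p with 1 sign on all arrays, up to 4 members of lowest p in each of 19 lists, and 5 genes each way for the course over days; list members beyond these were named after their values were seen. The members and the lists were chosen with earlier results of these data known. Alternatives covered centring, scaling, feature averaging, extreme values, the prior, array weights, the database number range and each array left out. Fits without moderation and with the day 3 repeats averaged were made for the mean only.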

Additional observations from a re-analysis of the deposited data

Results flagged for a closer look

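The 104 named genes were checked for an array far from the other 3 (by its gap to the nearest array against the whole range), and 9 had one; chance alone gives such an array in about 1 of 20 genes. In 5 of the 9 it was day 3 repeat 1, with 3.07 for SSR3, 2.27 for SRP14, 1.45 for BUB3, 0.67 for IRF4 and 0.15 for MCM5, each above the other arrays. In 3 it was day 5, with 2.40 for DUSP5, above the others, and -2.89 for ITGAX and -1.87 for NKG7, below them. FASLG had -2.57 at day 2, below the others.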

How the results depend on the processing

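The number of genes past the threshold, 5, was the least stable result. It was 1 with no centring, 1 with centring on features that have 1 symbol, 1 with the median of features, 94 with quantile normalization and 262 with array weights (81 higher and 181 lower). It was 0 with a trended robust prior, with no moderation, with the day 3 repeats averaged, with the database number range as a factor and with each feature tested, and 0 to 1 with 1 array left out. It was 7 with arrays scaled to one MAD, 4 among genes with 2 or more features and 4 with values beyond 6 log2 units missing. All 5 genes were among those called after MAD scaling, quantile normalization and array weights. FGFR2 passed under 8 of 16 alternatives, TNFRSF17, BMP6 and SGSH under 5 of 17 and ICOSLG under 4 of 17, and none of the 5 changed sign. The count for the course over days, 0, was 0 to 277 with 1 array left out and stayed 0 under the other alternatives fitted for it. The course was not fitted without moderation or with the day 3 repeats averaged. The mean of IRF4 (-0.03) was -0.26 to 0.072 with 1 array left out, changing sign to 0.062, 0.021 and 0.072, and was 0.69 for its feature of lowest p. IL21R changed sign for its feature of lowest p (1.16), and IGHM with no centring (-0.042). The cause was not tested. List medians stayed above 0 for the plasma cell list (0.45 to 1.21) and the ER list (0.38 to 0.86) and below 0 for the germinal centre (-0.65 to -0.30) and mature B-cell lists (-0.73 to -0.31). Counts of list members on one side of 0 with 1 array left out were added after seeing the data, and 33 of 152 moved by more than 1.5 times. Such a count can only stay or rise when an array is left out, so it does not test stability. No paired analysis was possible because each array already pairs both vectors and only day 3 has repeats. Signal over background was not analysed, so dim features cannot be told from bright ones.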

Other observations

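Genes whose features all shared a sign on every array were listed, a rule chosen after the values were seen. It asks only for a shared sign, so the mean of a gene may still rest on few features. Of 1382 genes with 3 or more features, 54 (3.91%) had every feature above 0 on every array and 15 (1.09%) had every feature below 0. The first group held BMP6, JCHAIN, PRDM1, BTG1 and CD38, given above, and the MHC class I heavy chain gene HLA-B, with 1.34 at day 2, 3.13 and 1.61 at day 3 and 1.87 at day 5, a mean of 1.99 (limma adjusted p = 0.119). MANF, a secreted ER stress protein, averaged 1.58, with day 3 repeat 1 at 3.38 and the others between 0.67 and 1.37. TXNIP, an inhibitor of thioredoxin and of glucose uptake, had 0.76, 1.57, 1.63 and 2.34 over 8 features, and CYP51A1, an enzyme of cholesterol synthesis, had 1.22, 0.97, 1.37 and 1.42. The group was not limited to such genes. It also held the ribosomal protein genes RPS29, RPS21, RPL37A, RPS4X and RPL27 and the mitochondrial genes ATP5PF and COX7C. Their means ran from 0.98 to 1.28, and day 3 repeat 1 was the highest array in each.

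The group below 0 held REL, BATF and TK1, given above. Its lowest mean was that of KCNN3, a calcium-activated potassium channel, with -2.11 at day 2, -1.59 and -2.43 at day 3 and -6.03 at day 5, a mean of -3.04 (limma adjusted p = 0.132). CCNG2, an unusual cyclin of cells that leave the cycle, averaged -2.87, B4GALT2, a galactosyltransferase of the Golgi, -2.97, and VAV3, a guanine nucleotide exchange factor downstream of the B-cell receptor, -2.57. GPNMB averaged -2.70, the chemokine receptor CXCR6 -2.03 and the retinoic acid receptor gene RARB -1.76. None of the genes in this group passed the threshold, and day 5 was the lowest array in most of those named. Single feature values shared the sign but often not the size. They ran from -8.75 to -0.32 in KCNN3, -7.54 to -0.36 in CCNG2 and -7.50 to -0.02 in REL, and from -2.48 to -0.37 in TK1.

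Features of 1 gene often disagreed: 1445 of 2674 genes with 2 or more features (54.0%) had feature means on both sides of 0, and the median SD between features of a gene was 0.595. Of the 25 genes with the lowest means 23 had 1 feature, as had 17 of the 25 with the highest, while 1930 of the 4604 genes had 1 feature. Of 5073 features without a symbol, none passed an adjusted p of 0.05 by limma in a fit over all 15246 features, and 24.2% had an unadjusted p under 0.05. The 2 with the lowest p had means of -4.23 and -4.24, both with a limma adjusted p of 0.0600.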
